A study of Mus musculus with 5 samples.

Results

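The genes described here are 9 components of the Hedgehog pathway, Shh, Ptch1, Smo, Gli1, Gli2, Gli3, Gas1, Hhip and Boc. They were chosen by gene symbol from 23441 gene rows of a deposited count table, and all 9 were found. The table covers 5 libraries of poly(A) RNA from the mandible of mouse embryos at embryonic day 10.5. The 3 control libraries were labelled Yapf/f, Tazf/f on the 129SvEv background, with floxed alleles and no Cre driver named. The 2 dCKO libraries were labelled Wnt1Cre; Yapf/f, Tazf/f on a C57BL/6J x CBA/J; 129SvEv background. Every library therefore carried the floxed alleles, and the groups differed in the Cre driver and in strain, whose parts cannot be told apart. Wnt1Cre acts in the neural crest, which forms most of the arch mesenchyme, and is not a driver of the epithelium, of mesoderm or of blood. Yap1 and Wwtr1, the gene called Taz in the labels, code for coactivators that the Hippo pathway holds in check. The comparison asks how mRNA levels in the mandible differ once both are deleted in the neural crest.

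In the Hedgehog pathway a secreted ligand binds the receptor Patched at the primary cilium and so relieves its block on Smoothened. Smoothened then lets the GLI factors act as activators in place of repressors. In the embryonic face the ligand Shh is made by the oral and pharyngeal epithelium, and the neural crest mesenchyme beneath it responds. Ptch1, Gli1 and Hhip are themselves switched on by the signal, and Ptch1 and Hhip restrain it.

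Each library held between 6491137 and 13298973 counts, with the dCKO libraries the deepest. Levels are given as CPM, counts scaled for library size and composition. Yap1, a targeted gene, measured 311.8, 475 and 512.1 CPM in controls 1, 2 and 3 and 174.6 and 169.9 CPM in dCKO libraries 1 and 2. Wwtr1, the other, measured 38.4, 65.1 and 66.2 CPM and 22.7 and 22.8 CPM, so for both every dCKO value was below the control range. Markers of mandibular neural crest mesenchyme were abundant in every library, with a summed level of 2142 to 2475 CPM over 12 genes. The ventral neural tube, another embryonic source of Shh, left little trace. Its 6 markers summed to at most 2.16 CPM, with Olig2 and Ferd3l at 0 counts throughout. Markers of other cell types differed between the groups. All 9 tested erythroid markers were called higher, the arch mesoderm markers summed to 68.7 to 94.9 CPM in controls and 102.5 to 117.6 CPM in dCKO tissue (0 of 7 called), and the myeloid markers to 14.2 to 15.6 and 24.9 to 38.4 CPM (1 of 6 called, higher). Neuron and glia markers summed to 13.5 to 24.4 and 25.3 to 29.7 CPM (1 of 4 called, higher). The labels do not say whether replicates are separate embryos. P-values therefore measure the spread between these samples, which may be technical. The tissue was sequenced in bulk, so fewer cells of a type and less RNA per cell cannot be told apart.

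None of the 9 Hedgehog genes passed the test between dCKO and control mandible (0 of 9 at a Benjamini-Hochberg adjusted p below 0.05 in edgeR's quasi-likelihood fit). The background was 6.42% of the 12710 genes tested, with 636 of them higher and 1.42% lower. DESeq2 and limma-voom also called 0 of the 9, against 6.55% and 6.86% of all genes. The authors' deposited table called 0 of the 9, against 2.88% of its genes. At an unadjusted p below 0.05 edgeR reached 2 of 9, Ptch1 and Gas1, where 21.5% of all tested genes did so. Those same genes were the 2 members whose groups did not overlap, against a background of 37.6% of tested genes. Log2 fold changes ran from −0.48 for Gas1 to 0.49 for Shh, with 3 members higher and 6 lower in the dCKO mean. The median was −0.04, beside a median of −0.00062 over all tested genes. The median size of the change, without its sign, was 0.23 for the members and 0.20 for all tested genes. The share of members past the unadjusted p and the size of their changes were thus close to those of all genes.

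**Figure D1:**
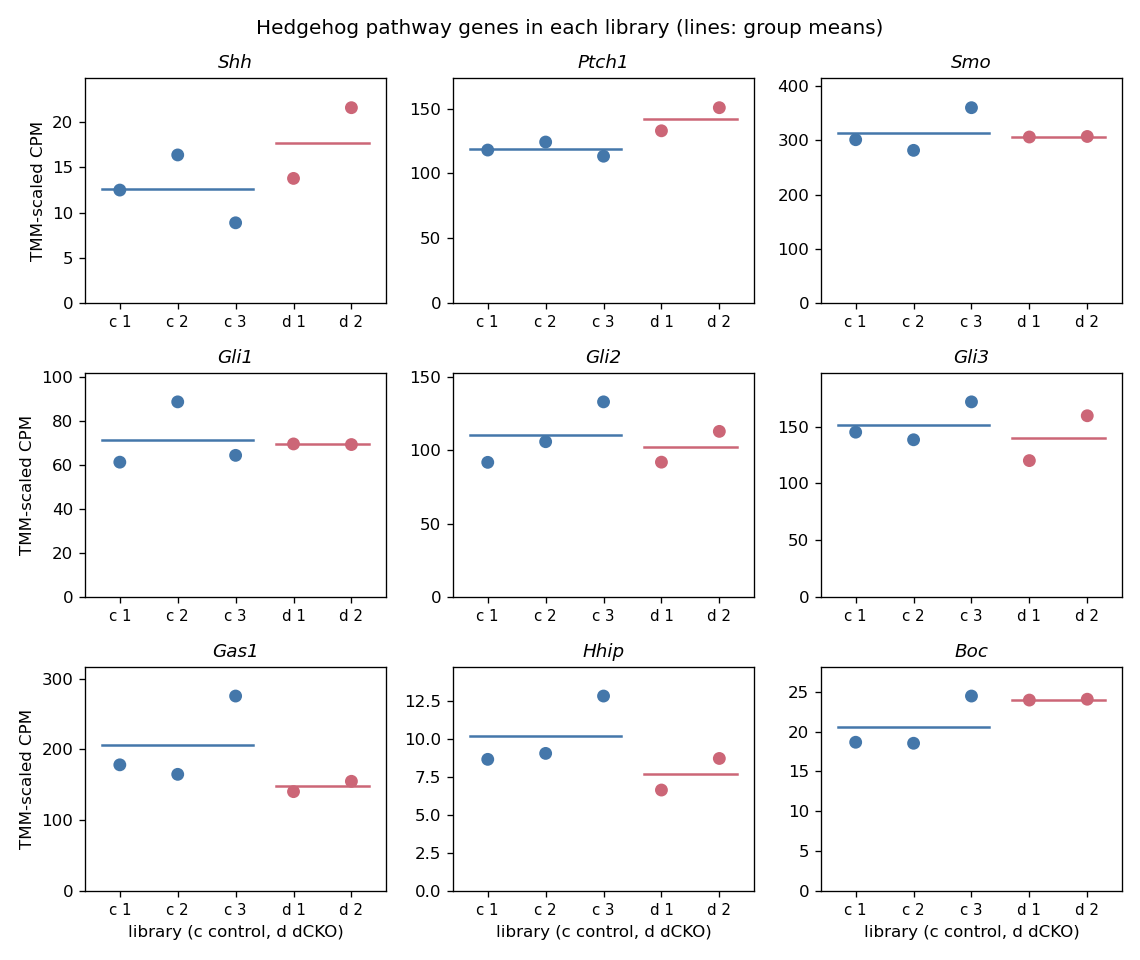
TMM-scaled CPM of each of the 9 Hedgehog genes (vertical axes, from 0) in the 3 control libraries (blue) and the 2 dCKO libraries (red), with a line at each group mean. Only Ptch1 and Gas1 have groups that do not overlap, and control replicate 3 is the highest of all libraries for 6 genes.

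Shh, the ligand gene, had few counts in this tissue. It measured 12.5, 16.4 and 8.86 CPM in control replicates 1, 2 and 3 and 13.8 and 21.6 CPM in dCKO replicates 1 and 2. Groups overlapped, since dCKO replicate 1 lay between control replicates 1 and 2. The log2 fold change was 0.49 (SE 0.25), and the test was not passed (edgeR adjusted p = 0.262). Its 95% interval of the fold ran from 0.981 to 2.01, an interval that takes in no change. Without dCKO replicate 2 the log2 fold change was 0.13, and without dCKO replicate 1 it was 0.79. Neither passed, with edgeR adjusted p of 0.88 and 0.21. In every fit without a dCKO library, the lone dCKO library is assumed to vary as the controls do, and a missed threshold there says little. The Shh value rested on 58 to 282 counts per library, and its size differed with the dCKO library kept.

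Summed markers of the epithelium, the tissue that makes Shh, lay above the control range in both dCKO libraries. The summed level of 12 epithelial markers was 461.1 to 567.3 CPM in the controls and 659.4 to 687.3 CPM in the dCKO libraries. Of these 12, 3 passed the test, all higher (Krt8, Krt18 and Krt19). Among 7 markers of pharyngeal endoderm, 6 were tested. Foxe1 and Cldn4 passed as higher and 4 did not pass. The summed level was 39.8 to 53.2 CPM in controls against 79.8 to 96.0 CPM in the dCKO libraries. Most of that sum came from Cldn4 alone in every library. Cldn4 measured 27.5, 31.4 and 33.0 CPM in the controls and 66.1 and 51.9 CPM in the dCKO libraries. Set against the epithelial sum, Shh measured 25.9, 28.9 and 19.2 per 1000 CPM of markers in the controls and 20.0 and 32.7 in the dCKO libraries. These ratios overlapped between the groups (exact permutation test, two-sided, p = 0.8), in a design of 3 against 2 libraries whose smallest possible p is 0.2. The part of the epithelial share in the Shh value was not tested beyond this ratio.

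Ptch1, the receptor that holds the pathway off and is itself a target of the signal, was the member with the tightest controls. It measured 118.1, 124.3 and 113.4 CPM in the controls and 133.0 and 150.9 CPM in the dCKO libraries. Both dCKO libraries lay above every control, as they did for 19.0% of all tested genes. Its log2 fold change of 0.26 (SE 0.12) did not pass after adjustment over all genes (edgeR adjusted p = 0.221, unadjusted 0.0456). The interval of the fold ran from 1.004 to 1.43. The authors' deposited table gives a fold change of 1.22 for Ptch1, with a p-value of 0.0468 and an adjusted p-value of 0.48.

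Smo, the transducer that Patched restrains, had the log2 fold change nearest 0 in the fit to all 5 libraries, next to Gli1. Once GC content was allowed for, the Smo value was −0.23, and Gli3, Boc and Hhip were nearer 0. Smo measured 301.4, 281.7 and 360.5 CPM in the controls and 306.4 and 307.4 CPM in the dCKO libraries, which lay inside the control range. The log2 fold change was −0.04 (SE 0.12, edgeR adjusted p = 0.901), and the interval of the fold was 0.817 to 1.17. Without control replicate 3 the log2 value turned to 0.07. Ptch1 per 100 Smo counts was 39.2, 44.1 and 31.4 in the controls and 43.4 and 49.1 in the dCKO libraries, with overlapping groups (exact permutation test, two-sided, p = 0.4). YAP and TAZ reach DNA through TEAD factors, and the start of Smo is shown because it was the only member promoter searched that held the TEAD letters CATTCC. The capitals mark the match, which lies 17 bases before the RefSeq start on the plus strand, in the window chr6:29735467-29735496 of GRCm38.p6. The first bases transcribed from that start were not found in a GENCODE M21 transcript (nor were those of Hhip and Gas1), so the position of the match rests on the RefSeq start alone.
Smo: cgcgaggcccgtgCATTCCagagagcaggg
Promoters from RefSeq were matched for 6 members (Gli2, Smo, Hhip, Gli3, Gas1 and Ptch1). The 250 bases before each start were searched on both strands. CATTCC or its reverse complement was found in 1 of these 6 and in 12.6% of all 32851 promoters. The GLI letters GACCACCCA were in 0 of the 6 and in 0.225% of all promoters, and their core CCACCCA in 0 of the 6 and in 8.11%. A match is a stretch of letters and no measured binding.

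Hhip, a membrane protein that binds and sequesters Hedgehog ligand, was the scarcest member per kilobase of transcript. It measured 8.67, 9.06 and 12.8 CPM in the controls and 6.65 and 8.73 CPM in the dCKO libraries. The highest dCKO value was just above the lowest control. The log2 fold change was −0.39 (SE 0.26, edgeR adjusted p = 0.402), with an interval of the fold from 0.521 to 1.11. Hhip and Ptch1, the 2 restraining genes that the signal induces, therefore had means on opposite sides of the controls, and neither passed.

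Gas1, a membrane-anchored co-receptor that helps Shh to reach Patched, had the most negative log2 fold change of the 9. It measured 178.3, 164.9 and 275.3 CPM in the controls and 140.5 and 155.1 CPM in the dCKO libraries. Both dCKO libraries lay below every control, as they did for 18.6% of all tested genes, and control replicate 3 stood far above the other controls. The log2 fold change was −0.48 (SE 0.17), which missed the threshold (edgeR adjusted p = 0.106, unadjusted 0.0115). The interval of the fold ran from 0.56 to 0.92. Without control replicate 3 the log2 fold change was −0.22 (edgeR adjusted p = 0.192), and without control replicate 2 it was −0.62 and passed (edgeR adjusted p = 0.0253). Against Smo, Gas1 measured 59.2, 58.5 and 76.4 per 100 Smo counts in the controls and 45.9 and 50.4 in the dCKO libraries, groups that did not overlap (exact permutation test, two-sided, p = 0.2, the smallest this design allows). The summed neural crest mesenchyme markers were also lower, at 2313 to 2475 CPM in the controls and 2142 to 2222 CPM in the dCKO libraries, with 3 of 12 called lower and 1 higher. Gas1 per 1000 CPM of these markers was 72.0, 71.3 and 113.3 in the controls against 65.6 and 69.8 in the dCKO libraries.

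The GC content of transcripts moved with the comparison and bears on Gas1. Tested genes were split into 5 classes of equal size by GC content, and the median log2 fold change climbed from −0.21 in the poorest class to 0.21 in the richest. Gas1, Gli1, Smo and Gli2 all lay in the richest class, at 58.4%, 59.0%, 57.8% and 57.5% GC. In a fit that took out the GC trend of each library, Gas1 stood at a log2 fold change of −0.67 (SE 0.14) and passed (edgeR adjusted p = 0.00645), the only member to do so. The share of all genes called in that fit was 5.60%. Gli1, Gli2 and Smo moved to −0.28, −0.29 and −0.23 without passing, and Hhip, the member poorest in GC at 41.2%, to −0.21. Boc moved from 0.23 to 0.08 and Gli3 from −0.12 to −0.06, while Ptch1 (0.27) and Shh (0.44) stayed near their first values. The dCKO mean of Gas1 was the lower under all 13 alternatives run, and Gas1 passed in 4 of them. Besides the GC fit and the fit without control replicate 2 (4.91% of all genes called), these were no filter on low counts (6.21%) and the replicate number as a block together with the GC fit (9.23%). Gli1 also passed, as lower, in the last of these. The block alone called 16.7% of all genes and 0 members.

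**Figure D2:**
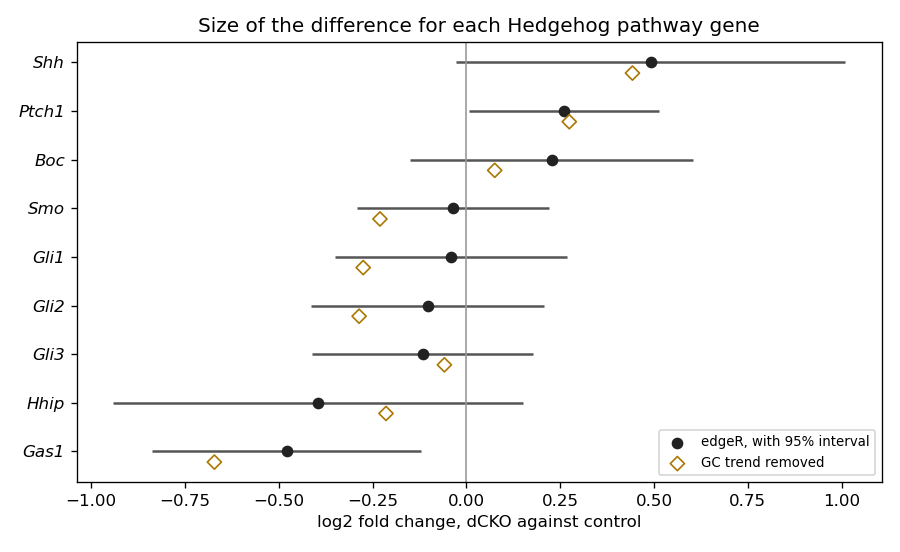
Log2 fold change of each Hedgehog gene between dCKO and control libraries (horizontal axis), as filled points with 95% intervals from edgeR, and as open diamonds once the trend with GC content was removed. The interval leaves out 0 for Ptch1 and Gas1, neither of which passed after adjustment, and the diamond of Gas1 lies farthest from 0.

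Boc, an immunoglobulin-family co-receptor, measured 18.7, 18.5 and 24.4 CPM in the controls and 23.9 and 24.04 CPM in the dCKO libraries. Control replicate 3 was the highest library, so the groups overlapped, although both dCKO libraries exceeded the other controls. The log2 fold change was 0.23 (SE 0.18, edgeR adjusted p = 0.493). The related co-receptor gene Cdon measured 71.3 ± 12.3 CPM in the controls and 66.9 ± 1.38 CPM in the dCKO libraries (SD, n = 3 and 2). The 3 co-receptor genes Gas1, Boc and Cdon thus had means on both sides of the controls, and none of them passed.

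The 3 GLI transcription factor genes did not pass, and their fold changes ran from 0.922 to 0.971. Gli1, an activator that depends on the signal for its own expression, measured 61.2, 88.6 and 64.3 CPM in the controls and 69.5 and 69.2 CPM in the dCKO libraries. Both dCKO values fell inside the control range, and the log2 fold change was −0.04 (SE 0.15, edgeR adjusted p = 0.902). The interval of the Gli1 fold was 0.784 to 1.203. Gli2, the main activator, measured 91.8, 105.9 and 133.1 CPM in the controls and 92.0 and 112.9 CPM in the dCKO libraries. Gli3, the main repressor, measured 145.1, 138.4 and 171.7 CPM in the controls and 120.1 and 159.5 CPM in the dCKO libraries. Groups overlapped for both, with a log2 fold change of −0.10 (SE 0.15) for Gli2 and −0.12 (SE 0.14) for Gli3. The edgeR adjusted p was 0.74 for Gli2 and 0.681 for Gli3. Without control replicate 2 the Gli1 value turned to 0.14, and without dCKO replicate 1 those of Gli2 and Gli3 to 0.05 and 0.08. RNA levels do not show how much GLI protein is processed to its repressor form.

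The balance among the GLI genes can be read within each library without scaling for library size, though not without the GC trend. Gli1 took 21.5% ± 4.67 (SD, n = 3) of the summed Gli1, Gli2 and Gli3 counts in control and 22.5% ± 3.13 (SD, n = 2) in dCKO tissue. Gli2 took 32.9% ± 2.78 and 32.9% ± 0.277, and Gli3 45.6% ± 3.64 and 44.7% ± 2.85 (SD, n = 3 and 2). The groups overlapped for each of the 3 shares. Gli1 and Gli2 are richer in GC (59.0% and 57.5%) than Gli3 (48.4%), and in the GC fit Gli1 and Gli2 stood at log2 fold changes of −0.28 and −0.29 against −0.06 for Gli3, so the mean of Gli1 relative to Gli3 was then lower in dCKO tissue. Single libraries differed within a group by more than counting error: the Gli1 share was 26.6% in control replicate 2 (95% Wilson interval 24.9 to 28.4) and 17.4% in control replicate 3 (16.0 to 19.0). Those intervals cover counting error only. Ptch1 per Gli1 count, a ratio of the pathway's own targets, was 1.93, 1.403 and 1.76 in the controls and 1.91 and 2.18 in the dCKO libraries (exact permutation test, two-sided, p = 0.4).

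**Figure D3:**
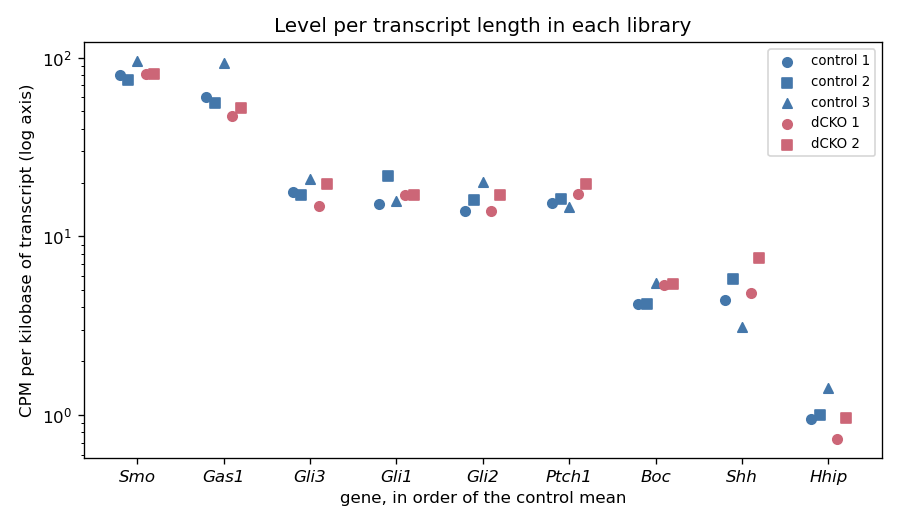
CPM per kilobase of transcript (vertical log axis) for each Hedgehog gene in each library, ordered by the control mean. Smo and Gas1 stand highest, Gli3, Gli1, Gli2 and Ptch1 share a middle band, Boc and Shh lie lower and Hhip lowest.

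Levels were compared between genes per kilobase of the longest protein-coding transcript. In the controls Smo stood at 83.2 ± 10.9 and Gas1 at 69.6 ± 20.3 CPM per kilobase (SD, n = 3). Their control ranges overlapped, though Smo was above Gas1 in all 5 libraries. Gli3, Gli1, Gli2 and Ptch1 followed at 18.6 ± 2.16, 17.6 ± 3.69, 16.6 ± 3.16 and 15.4 ± 0.711 CPM per kilobase, and neighbours in that order overlapped. Ptch1 exceeded Gli2 in 4 of the 5 libraries although its control mean was lower. Boc and Shh were at 4.62 ± 0.759 and 4.42 ± 1.32 CPM per kilobase, again overlapping, and Hhip at 1.12 ± 0.253. The steps from Gas1 to Gli3, from Ptch1 to Boc and from Shh to Hhip exceeded the spread, each with separate control ranges. Per kilobase of coding sequence Gas1 and Smo changed places, at 200.3 ± 58.6 and 132.2 ± 17.2 CPM per kilobase (SD, n = 3), and so did Shh and Boc, at 9.59 ± 2.86 and 6.17 ± 1.01. The middle band was reordered too, with Gli3 at 31.9 ± 3.71, Ptch1 at 27.6 ± 1.28, Gli2 at 23.8 ± 4.52 and Gli1 at 21.4 ± 4.50. By both lengths Smo, Gas1 and Ptch1 stood above the ligand gene Shh.

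The libraries of a group also differed among themselves. The tallies below have no matching share over all tested genes, so they are not shown to be particular to the members. Control replicate 3 was the highest of all 5 libraries for 6 members (Smo, Gli2, Gli3, Gas1, Hhip and Boc). It was the lowest of all for Shh and Ptch1. Foxf1, a forkhead gene that Hedgehog induces in cranial mesenchyme, was also lowest there, at 27.5 CPM against 46.2 and 65.1 in the other controls. Between the dCKO libraries, replicate 2 was the higher for 8 of the 9 members and the lower for Gli1, by margins from 306.4 against 307.4 CPM for Smo to 13.8 against 21.6 CPM for Shh.

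**Figure D4:**
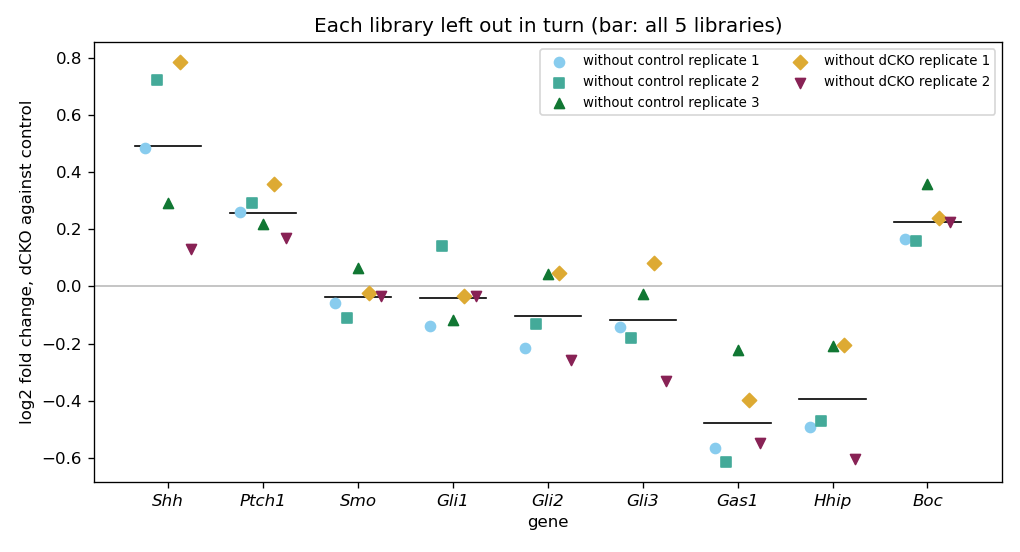
Log2 fold change of each Hedgehog gene (vertical axis) with each library left out in turn (symbols) beside the value from all 5 libraries (bars). Shh, Ptch1 and Boc stay above 0 and Gas1 and Hhip below 0 in all 5 fits, while Smo, Gli1, Gli2 and Gli3 cross 0.

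The rest of the pathway was described with 76 further genes in 5 lists, of which 72 had enough counts to be tested. Of these, 4 passed as higher and 2 as lower, together 8.33%, against 6.42% of all tested genes. The lists share 1 gene. The median log2 fold change over the 72 was −0.06. The 5 lists are taken in turn from ligand to target, and 6.42% is the background for the calls in each.

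Among 8 genes for Hedgehog ligands and their release, 4 were tested and 2 passed, Dhh and Scube1. Dhh, the ligand known from Schwann cells and endothelium, was nearly absent from controls, with 0, 2 and 2 counts, and had 17 and 28 counts in the dCKO libraries. That is 0.192 ± 0.167 against 1.86 ± 0.405 CPM (SD, n = 3 and 2), with a fitted log2 fold change of 3.23 and an SE of 0.77 (edgeR adjusted p = 0.0139). The size of that change depends on the prior count, as so few counts stand behind the controls. Its call was lost when control replicate 1, dCKO replicate 1 or dCKO replicate 2 was left out (edgeR adjusted p up to 0.171), with log2 fold changes of 2.65, 3.44 and 2.98. The last 2 of these fits kept a single dCKO library. Sox10, a gene of glia and early neural crest that marks Schwann cell precursors, had 0 counts in each control and 59 and 22 in the dCKO libraries, while endothelial markers summed to 245 to 281.5 CPM in controls and 257.9 to 313.4 CPM in dCKO tissue. The part of such cells in the Dhh value was not tested. Ihh reached at most 1 count in any library.

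Scube1, which encodes a secreted protein of a family that helps release Hedgehog ligand, measured 24.7, 28.1 and 41.1 CPM in the controls and 43.1 and 58.1 CPM in the dCKO libraries. The groups did not overlap, and Scube1 passed as higher at a log2 fold change of 0.70 with an SE of 0.19 (edgeR adjusted p = 0.0307). Scube1 is also known from platelets and endothelium. Endothelial markers summed to 245 to 281.5 CPM in controls and 257.9 to 313.4 CPM in the dCKO libraries (0 of 8 called). No list of platelet markers was drawn up. Red cell markers, which measure neither cell type, summed to 3409 to 4419 CPM in controls against 55604 to 79848 CPM in the dCKO libraries. The part of platelets, endothelium or blood in the Scube1 value was not tested. The call was lost in the GC fit (edgeR adjusted p = 0.0859, log2 fold change 0.54). It was also lost when control replicate 1, control replicate 2 or dCKO replicate 2 was left out (up to 0.317), at log2 fold changes of 0.56, 0.63 and 0.47, the last with a single dCKO library kept. The related Scube3 measured 57.8 ± 14.3 and 58.8 ± 0.154 CPM (SD, n = 3 and 2). Hhat, the enzyme that palmitoylates the ligand, measured 11.9 ± 2.14 and 11.6 ± 0.42 CPM. Disp1, which exports the ligand, was listed at 0 counts in every library. The annotation used for counting is not given, so this 0 does not show that Disp1 was not expressed.

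At the cell surface, 1 of 6 further reception genes passed, Gpc4, a glypican. Gpc4 rose from 24.003 ± 3.99 to 36.5 ± 5.01 CPM (SD, n = 3 and 2) and passed at an edgeR adjusted p of 0.0418, with a log2 fold change of 0.60 (SE 0.17). Leaving out any 1 library except control replicate 2 ended its call (up to 0.376). The log2 fold change was 0.50 without control replicate 1, 0.58 without control replicate 3, and 0.47 and 0.74 in the fits that kept a single dCKO library. Gpc3, a glypican that competes with Patched for ligand, measured 1100 ± 61.0 and 885.2 ± 14.4 CPM and missed the threshold (log2 fold change −0.31, SE 0.10, edgeR adjusted p = 0.0681).

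Inside the cell, 1 of 23 transduction genes passed. Arrb1, a beta-arrestin that has been linked to the movement of Smoothened and is also an adaptor of many other receptors, rose from 142.2 ± 16.0 to 228 ± 4.77 CPM (SD, n = 3 and 2). Its log2 fold change was 0.68, with an SE of 0.12 and an edgeR adjusted p of 0.00125. It passed under all 13 alternatives. The core regulators of GLI did not pass. Sufu, which holds GLI proteins in the cytoplasm, measured 72.4 ± 7.71 and 69.9 ± 7.56 CPM, and Kif7, a ciliary kinesin of the pathway, 39.9 ± 7.99 and 41.6 ± 0.46 CPM (SD, n = 3 and 2). The list had a median log2 fold change of 0.03. In the GC fit Btrc, a ubiquitin ligase subunit that acts on GLI proteins, also passed as higher (0.43, edgeR adjusted p = 0.0256), and Evc, a ciliary partner of Smoothened, as lower (−0.47, 0.0367).

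Of 12 genes known to respond to Hedgehog in cranial mesenchyme, 1 passed, and it was lower. Foxd1, a forkhead gene of the facial mesenchyme, measured 19.4, 31.5 and 33.6 CPM in the controls and 13.2 and 17.5 CPM in the dCKO libraries. The groups did not overlap, and Foxd1 passed at an edgeR adjusted p of 0.0224, with a log2 fold change of −0.87 and an SE of 0.22. Its call was lost when control replicate 3 or dCKO replicate 1 was left out (0.0556 and 0.285), the latter with a single dCKO library kept, at log2 fold changes of −0.73 and −0.67. The other forkhead genes of the list did not follow it in the test, with log2 fold changes of 0.01 for Foxf1, −0.02 for Foxf2, 0.29 for Foxd2, 0.08 for Foxc2 and −0.22 for Foxl1. Ccnd1, the cyclin D1 gene, measured 560.1 ± 43.5 and 460.7 ± 24.2 CPM (SD, n = 3 and 2) and did not pass (edgeR adjusted p = 0.139). The list had a median of −0.01, with 6 members above and 6 below 0. In the GC fit the median was −0.18, beside −0.0031 for all tested genes.

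Among 28 genes of the primary cilium and intraflagellar transport, the machinery on which vertebrate Hedgehog signalling runs, 22 were below 0 and 1 passed. Over all tested genes, 6363 of 12710 were below 0 and 6.42% passed. Ift57, a subunit of the transport complex, went from 36.8 ± 4.76 down to 23.7 ± 3.31 CPM (SD, n = 3 and 2) and passed, with an edgeR adjusted p of 0.027 and a log2 fold change of −0.63 (SE 0.17). Tulp3, which brings receptors into the cilium, and Wdr35, another transport subunit, missed the threshold at log2 fold changes of −0.32 and −0.40 (edgeR adjusted p = 0.118 and 0.127). Both dCKO libraries were below every control for 10 of the 28, beside a background of 18.6% of tested genes. The median of the list was −0.15, at a median GC content of 47.8% against 50.3% for all tested genes. In the GC fit the median was −0.11, with 18 genes below 0, beside 6378 of all 12618 genes in that fit. Ift57 then missed the threshold (log2 fold change −0.51, edgeR adjusted p = 0.0597), while Tulp3 passed (−0.39, 0.0341). Ift57 also lost its call when control replicate 1, dCKO replicate 1 or dCKO replicate 2 was left out (up to 0.321), at log2 fold changes of −0.52, −0.49 and −0.78, the last 2 with a single dCKO library kept.

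**Figure D5:**
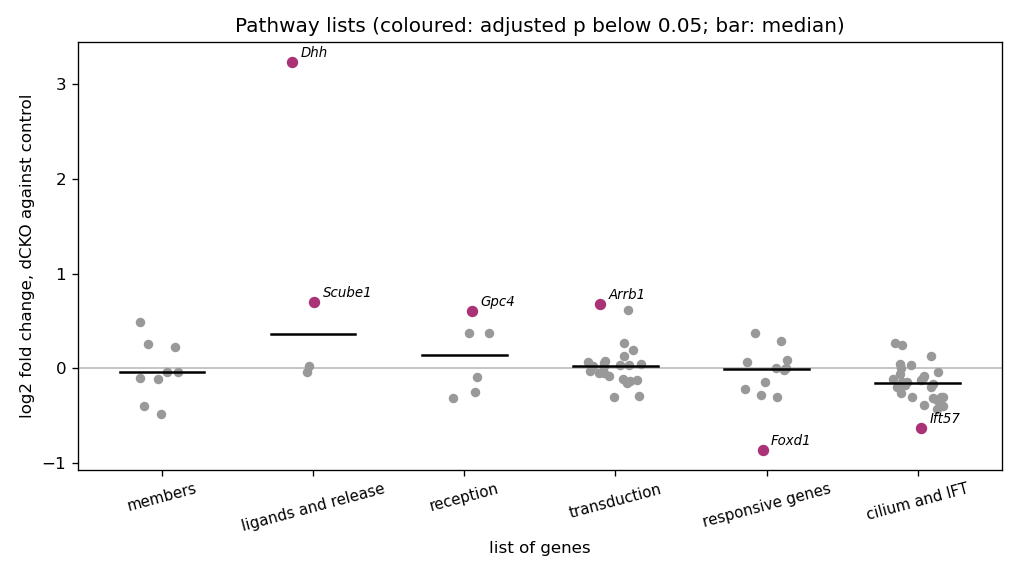
Log2 fold change between dCKO and control libraries (vertical axis) of each tested gene in the 9 Hedgehog members and the 5 further pathway lists, with a bar at each list's median. Coloured and named points passed the test: Dhh, Scube1, Gpc4 and Arrb1 higher, Foxd1 and Ift57 lower, and no member.

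Genes whose profile over the 5 libraries was most like that of Shh, Ptch1 or Gli1 were sought among 10746 others averaging at least 5 CPM. Likeness was the root mean square difference of log2 CPM, each gene centred on its own mean, and is a description over 5 libraries. Nearest to Ptch1 were Pgm2l1, Slc43a2 and Arhgap1 (differences of 0.029, 0.036 and 0.037). Nearest to Gli1 were Ptpdc1, Nfu1 and Mcm9 (0.023, 0.039 and 0.041), and nearest to Shh were Hpn, Cox4i2 and Col12a1 (0.058, 0.089 and 0.107). As values beside these, Ptch1 differed from Boc by 0.19, from Gli1 by 0.21 and from Shh by 0.29, and Shh from Gas1 by 0.70.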

How the data were processed

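Deposited were the authors' raw count of reads for each gene symbol, in 5 columns, and a table of their own comparison. Per the file headers the latter holds a normalized signal per group, its ratio as a fold change, the log2 value and p-values. HTSeq 0.5.4p3, DESeq 1.16.0 and mm9 are named in the submitters' processing notes. For the aligner, annotation, counting mode and strand setting the sources used here give nothing. Reads of overlapping or antisense genes therefore cannot be told apart, and annotated exons of other genes share 19.9% of the exon bases of Gas1, up to 15.7% of those of Shh and up to 5.31% of those of Gli1. Control columns are headed WT and were matched by replicate number.

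Counts were analysed in R 4.3.3 with edgeR 4.0.16 (filterByExpr defaults, minimum count 10 and minimum total 15; TMM; glmQLFit and glmQLFTest, two-sided; Benjamini-Hochberg over all 12710 tested genes). All 9 members passed the filter. SE is the size of the log2 fold change divided by the root of F, and 95% intervals use the fit's degrees of freedom. CPM are TMM-scaled. Transcript length and GC content came from GENCODE M21 (GRCm38), matched for 99.3% of tested genes, and promoters from RefSeq GRCm38.p6. Coordinates other than that of the printed promoter window are left out, because these builds are not mm9. Counts of same-group replicates did not agree within sampling noise (chi-square of at least 4.28 a gene). The script was tested on simulated counts. Alternatives were RLE scaling, DESeq2 1.42.0, limma-voom (limma 3.58.1), 2 other count filters, each library left out in turn, a GC offset, and the replicate number as a block with and without it.

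The members and lists were chosen with earlier results of these data known. Named genes are the 9 members, Yap1 and Wwtr1, called genes of each further list or else up to 3 with the smallest p, for marker lists the summed CPM and count called, and for Shh, Ptch1 and Gli1 the 3 most alike genes. Named after their values were seen were Cdon, Sufu, Kif7, Scube3, Hhat, Disp1, Ihh, Gpc3, Ccnd1, Tulp3, Wdr35, Btrc, Evc, Sox10, the forkhead genes other than Foxd1, and the called or zero-count markers. The listed Foxf1a is Foxf1 in the table.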

Additional observations from a re-analysis of the deposited data

How the results depend on the processing

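Of the 9 members, 0 were called in the fit to all 5 libraries, and 0 were called higher under any of the 13 alternatives. As lower, 1 was called without a filter on low counts (Gas1, log2 fold change −0.47, edgeR adjusted p = 0.00693), 1 with the GC trend removed (Gas1, −0.67), and 0 to 1 with single libraries left out (Gas1 without control replicate 2, −0.62). Directions that turned were those of Smo (0.066 without control replicate 3), Gli1 (0.143 without control replicate 2), Gli2 (0.045 and 0.047 without control replicate 3 or dCKO replicate 1) and Gli3 (0.084 without dCKO replicate 1). With single libraries left out the range was −0.11 to 0.07 for Smo, −0.14 to 0.14 for Gli1, −0.26 to 0.05 for Gli2, −0.33 to 0.08 for Gli3 and −0.62 to −0.22 for Gas1. The cause was not tested.

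The labels do not say whether a shared replicate number marks a shared litter or day. Same-numbered libraries had correlations of deviations of 0.084 and −0.0042. These cannot decide it, since the deviations of 2 dCKO libraries from their mean mirror each other. With the replicate number as a block, to which control replicate 3 has no partner, 1200 genes were called higher and 921 lower in place of 636 and 180, with 0 members, 7 further pathway genes called lower, Smo at 0.075 and Gli2 at 0.048. With the block and the GC trend removed, 424 genes, 8 further pathway genes and 2 members were called lower, Gas1 (−0.503) and Gli1 (−0.399, edgeR adjusted p = 0.0281), and Gli3 and Hhip turned to 0.044 and 0.047.

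Without a filter, 305 genes were called lower. With single libraries left out, counts over all genes ranged from 403 to 950 higher and from 39 to 687 lower, and those of the further pathway genes from 1 to 3 higher and from 0 to 5 lower. Dhh could not be fitted under the stricter filter, as its counts miss it. Depth limits Shh and Hhip, with 58 to 282 and 66 to 114 counts per library.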
